A study of Mus musculus with 2 samples.

Results

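Sim2, Acpp, Vdr, Angptl4, Igfbp5 and Ndrg1 are 6 of the 18724 genes in a table of read counts from sorted mouse prostate luminal cells. They were chosen by their counts, which were far lower in the label-retaining library than in the non-retaining library. The values that chose them are therefore given as a description, without a test. The rule set no numerical threshold for "far lower".

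The study labelled chromatin with a histone 2B-GFP fusion, which dividing cells dilute, so that cells dividing rarely stay green. GFP+ luminal cells are the label-retaining cells and GFP- luminal cells are the non-retaining cells, both freshly sorted from prostates of mice aged 18 weeks. Each group was 1 total RNA library, so nothing here has a replicate check, and every interval covers counting error only. The labels give neither the promoter that drives the fusion nor the surface markers of the sort, the strain or how many mice were pooled.

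The 6 genes come from different branches of biology. Sim2 encodes a transcription factor of the bHLH-PAS family, whose members pair with ARNT proteins on DNA and include the hypoxia factors. It is known from the embryonic midline and craniofacial tissues and from mammary ductal epithelium. Acpp encodes prostatic acid phosphatase, in humans a secreted product of prostate luminal cells, and in mice also an enzyme of pain-sensing neurons. Vdr encodes the nuclear receptor for active vitamin D, which pairs with RXR receptors and is known from intestine, kidney, bone, skin keratinocytes and activated T cells. Angptl4 encodes a secreted inhibitor of lipoprotein lipase, known from fat and liver and induced by PPAR receptors and by low oxygen. Igfbp5 encodes a secreted protein that binds insulin-like growth factors, known from smooth muscle, fibroblasts and the involuting mammary gland. Ndrg1 encodes a cytoplasmic protein of differentiated epithelia and myelinating Schwann cells that low oxygen induces, as do androgens in human prostate cancer cells. Of these, Acpp is the one classically tied to the luminal secretory cell, a tie established in humans.

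The libraries held 50689229 reads (label-retaining) and 48334265 reads (non-retaining) in the genes of the table. The luminal keratin gene Krt8 stood at 4367 TPM in the label-retaining library and 2478 TPM in the non-retaining library, where TPM is a level corrected for gene length and scaled to the library total. The basal keratin gene Krt5 stood at 25.3 TPM in the label-retaining library and 711 TPM in the non-retaining library. Defining markers of luminal cells were thus present in both libraries, and those of basal cells were present too, far more so in the non-retaining one. A gene was counted as measured when its normalised counts averaged 10 or more. Of 17183 such genes, 2483 (14.5%) were called higher and 3330 (19.4%) lower in the label-retaining library. A call needed a log2 ratio of at least 1 in size and a counting interval that excluded equality. Scaling to total reads gave 1917 higher and 4001 lower, and scaling on Krt8 and Krt18 gave 903 higher and 7128 lower. These scalings moved the log2 ratios of well-counted genes by -0.20 and -0.78, and those of genes with few reads by less, because of the pseudocount. All 6 genes were called lower, beside the background of 19.4%, which follows from how they were chosen.

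Sim2 (ENSMUSG00000062713.7, chromosome 16, 94084931 to 94127032, plus strand, mm10) had 4 reads in the label-retaining library and 2799 reads in the non-retaining library. It was thus close to undetected in the label-retaining cells and a well-measured transcript in the others. The normalised count was 3.99 in the label-retaining library, with an exact Poisson 95% interval of 1.09 to 10.2, and 2546 in the non-retaining library (2453 to 2642). Its log2 ratio of label-retaining over non-retaining was -9.15 with an exact (Clopper-Pearson) 95% counting interval of -11.2 to -7.96, which is 567-fold lower. With a pseudocount of 5 in place of 0.5, the log2 ratio was -8.15, because the label-retaining count is so small. Only 3 measured genes, Sim2 included, lay at or below that ratio. The other two were Gzma, a protease gene of killer lymphocytes, and Tcrg-C2, a segment of the gamma T-cell receptor, both with 0 reads in the label-retaining library. With the label-retaining count set to a floor of 3 reads, Gzma was 679-fold lower and Tcrg-C2 201-fold lower. The exact counting intervals of their log2 ratios reached up to -9.11 for Gzma and -7.35 for Tcrg-C2. By the same measure, without a pseudocount, Sim2 was 638-fold lower from its 4 reads, which lie above that floor. The ratio of Tcrg-C2 is set by the pseudocount and its counting interval spans that of Sim2, so the counts do not settle their order.

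Angptl4 (ENSMUSG00000002289.14, chromosome 17, 33773750 to 33781830, minus strand) had 157 reads in the label-retaining library and 5103 reads in the non-retaining library. The log2 ratio was -4.88 (-5.13 to -4.66), or 29.5-fold lower, and 1.04% of measured genes lay at or below it. Unlike Sim2, Angptl4 remained well above the counting floor in the label-retaining library.

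Acpp (ENSMUSG00000032561.13, chromosome 9, 104288251 to 104337748, minus strand) had 268 reads in the label-retaining library and 5985 reads in the non-retaining library. The log2 ratio was -4.34 (-4.53 to -4.17), or 20.3-fold lower, with 1.84% of measured genes at or below it. Prostatic acid phosphatase is made in secreted and membrane-bound forms, and the table gives them as 1 value. Vdr (ENSMUSG00000022479.14, chromosome 15, 97854425 to 97910630, minus strand) had 300 reads in the label-retaining library and 5500 reads in the non-retaining library. The log2 ratio was -4.06 (-4.24 to -3.89), or 16.7-fold lower, with 2.38% of measured genes at or below it. The counting intervals of Acpp and Vdr overlapped.

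Igfbp5 (ENSMUSG00000026185.8, chromosome 1, 72857932 to 72874884, minus strand) had 3092 reads in the label-retaining library and 45194 reads in the non-retaining library. The log2 ratio was -3.74 (-3.79 to -3.68), or 13.3-fold lower, with 3.10% of measured genes at or below it. Ndrg1 (ENSMUSG00000005125.11, chromosome 15, 66929318 to 66969640, minus strand) had 2621 reads in the label-retaining library and 14411 reads in the non-retaining library. The log2 ratio was -2.33 (-2.39 to -2.27), or 5.01-fold lower, the smallest difference of the 6, with 7.94% of measured genes at or below it. Exons of Ndrg1 overlap those of the opposite-strand transcripts Gm17035 and Gm2895, neither analysed here. The labels do not say how the counting used strand, so reads of these transcripts and of Ndrg1 cannot be told apart. The annotation placed no other gene over any of the other 5 genes.

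**Figure D1:**
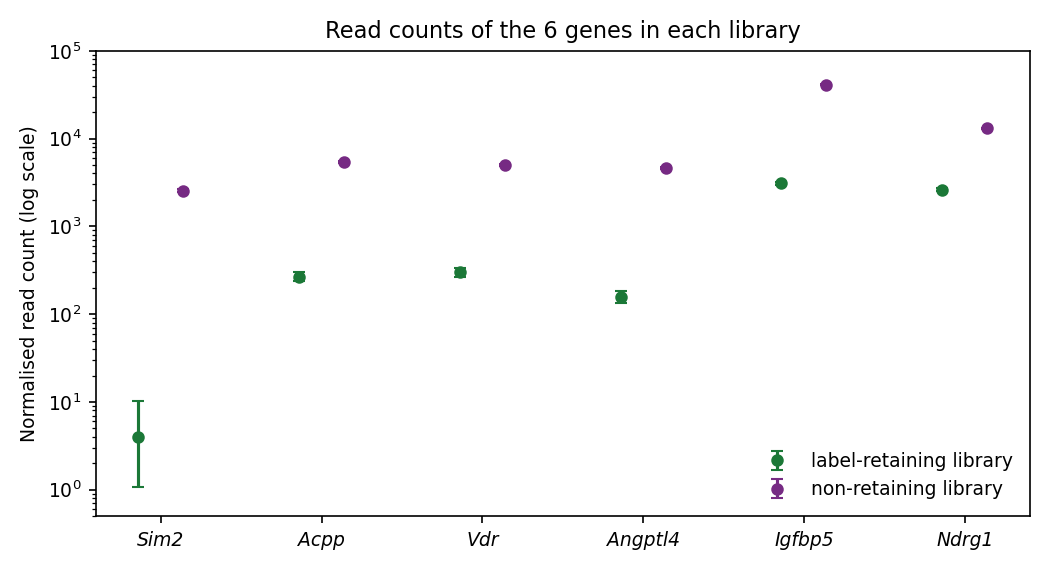
Normalised read counts (log scale) of the 6 genes, with label-retaining values in green left of non-retaining values in purple; bars are exact Poisson 95% intervals and cover counting error only. Sim2 lies at 3.99 in the label-retaining library, while the other 5 genes keep 157 or more.

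By ratio, the order from the most depleted was Sim2, Angptl4, Acpp, Vdr, Igfbp5 and Ndrg1, and Acpp and Vdr were the only neighbours in that order with overlapping intervals. In the bulk libraries, fewer cells that express a gene and less of its RNA per cell cannot be told apart. By level per length, Igfbp5 led in both libraries, at 29.7 TPM in the label-retaining library and 409 TPM in the non-retaining library. Ndrg1 was next in both, at 22.9 TPM in the label-retaining library and 119 TPM in the non-retaining library. Sim2 was the lowest of the 6 in both, at 0.0547 TPM in the label-retaining library and 36.0 TPM in the non-retaining library. The remaining 3 genes lay between 2.11 and 3.06 TPM in the label-retaining library and between 44.4 and 78.3 TPM in the non-retaining library. In the non-retaining library all 6 genes were thus above the level of 82.6% or more of measured genes. In the label-retaining library Igfbp5 still stood at percentile 79.6 and Ndrg1 at 74.6, whereas Vdr, Angptl4 and Acpp stood between 33.8 and 39.2 and Sim2 at 1.38.

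**Figure D2:**
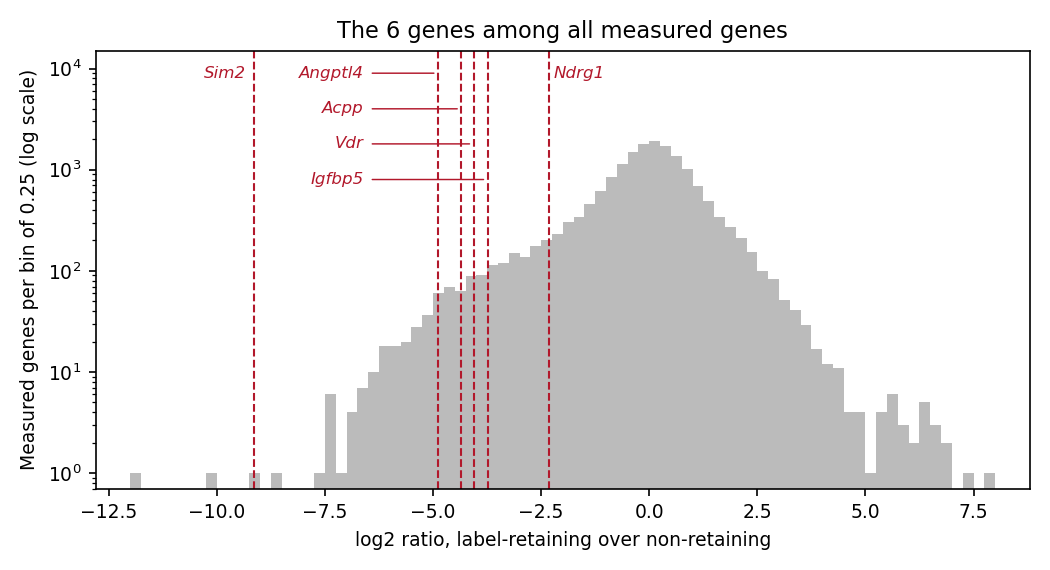
Histogram of the log2 ratio (label-retaining over non-retaining, x axis) of all 17183 measured genes, on a log count axis, with dashed lines at the 6 genes. Sim2 at -9.15 stands beyond nearly all genes, and Ndrg1 at -2.33 is the nearest of the 6 to equality; the ratios of the 2 genes left of Sim2 are set by the pseudocount.

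Promoter sequences, 250 bases before to 50 after a start of transcription, were at hand from RefSeq (GRCm38.p6) for 3 of the 6 genes. The Acpp and Igfbp5 windows span the outermost annotated starts of their genes. The Vdr window, up to 97908546, lies wholly inside the gene, whose outermost annotated start is at 97910630. It thus belongs to a start within Vdr, which has 6 annotated transcripts. The sequences are shown to set start regions of genes with similar ratios side by side. Capitals mark the GC box GGGCGG on either strand.
Acpp, chr9:104337673-104337972, minus strand: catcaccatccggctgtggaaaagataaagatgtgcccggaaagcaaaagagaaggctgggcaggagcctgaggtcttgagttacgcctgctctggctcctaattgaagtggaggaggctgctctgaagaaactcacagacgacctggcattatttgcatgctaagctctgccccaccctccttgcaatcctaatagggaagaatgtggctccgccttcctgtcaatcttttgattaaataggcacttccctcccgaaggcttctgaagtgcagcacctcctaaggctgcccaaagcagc
Vdr, chr15:97908247-97908546, minus strand: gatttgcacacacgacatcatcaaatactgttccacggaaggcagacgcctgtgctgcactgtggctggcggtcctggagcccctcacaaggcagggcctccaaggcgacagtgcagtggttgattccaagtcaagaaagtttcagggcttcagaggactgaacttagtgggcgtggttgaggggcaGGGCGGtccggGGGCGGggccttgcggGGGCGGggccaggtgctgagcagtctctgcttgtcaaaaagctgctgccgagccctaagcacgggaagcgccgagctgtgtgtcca
Igfbp5, chr1:72874816-72875115, minus strand: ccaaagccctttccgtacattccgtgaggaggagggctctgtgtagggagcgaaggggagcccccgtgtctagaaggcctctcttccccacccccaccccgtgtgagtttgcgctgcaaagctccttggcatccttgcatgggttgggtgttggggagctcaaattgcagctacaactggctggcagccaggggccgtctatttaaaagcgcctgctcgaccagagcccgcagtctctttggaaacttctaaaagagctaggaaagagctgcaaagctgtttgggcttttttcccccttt

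The 3 windows differed in base composition. G and C made up 52.0% of the Acpp window, 61.3% of the Vdr window and 56.3% of the Igfbp5 window, against a median of 53.0% over 32544 mouse promoter windows. The Vdr window held 3 GC boxes, which begin at positions -63, -52 and -36 from that start within the gene, and 35.9% of all windows hold at least 1. Searched on both strands, the windows held none of ACGTG (the core of the hypoxia element, in 19.7% of all windows), TACGTG (the SIM-ARNT element, which contains that core, 3.24%), AGGTCA (a nuclear receptor half-site, 16.3%) and TGTTCT (an androgen receptor half-site, 18.9%). They also held neither TATAAA (13.6%) nor CCAAT (37.4%). This says only that those letters are not in these windows.

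Neighbouring genes on the chromosomes did not share one pattern, and the gaps to them ran from 1850 to 715491 bases. The nearest measured genes on each side of Sim2 were the claudin gene Cldn14 and the biotin ligase gene Hlcs. Cldn14, 76094 bases away, was at a log2 ratio of -2.00 (-3.65 to -0.79). Hlcs, 1850 bases away, was at 1.02 (0.86 to 1.18). Beside Acpp, the endosomal gene Dnajc13, 25321 bases away, was at 0.10. The mitochondrial ribosomal gene Mrpl3, the nearest measured gene on the other side but 715491 bases away, was at -0.16. Beside Vdr, the deacetylase gene Hdac7 was at -0.41 and Tmem106c at 0.93, and beside Angptl4, Gm17251 was at -0.14 and Kank3 at 0.13. The neighbours of these 3 genes were thus within 2-fold. Beside Igfbp5, its family member Igfbp2, 5458 bases away, was at -1.59 (-2.17 to -1.07). On the other side 1700027A15Rik, 109960 bases away, was at 3.18 from 62 reads in the label-retaining library and 7 reads in the non-retaining library. Both nearest measured neighbours of Ndrg1 were lower. Ccn4, a matricellular protein gene 6117 bases away, was at -2.61 (-3.62 to -1.81). The sialyltransferase gene St3gal1, 133235 bases away, was at -3.47 (-3.70 to -3.25).

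Under the deposited scaling, the measured relatives of Sim2 were either called lower or lay above equality by less than 2-fold. Among 11 other measured bHLH-PAS genes, 0 were higher and 5 were lower, beside 14.5% and 19.4% of all measured genes. The median log2 ratio was 0.05 beside -0.0052 for all measured genes. The lower ones included the hypoxia factor genes Epas1, at -3.64 (-3.78 to -3.50), and Hif1a, at -2.04 (-2.07 to -2.00), which stood at 67.6 TPM in the label-retaining library and 287 TPM in the non-retaining library. The dioxin receptor gene Ahr stood at 98.2 TPM in the label-retaining library and 58.6 TPM in the non-retaining library, at a ratio of 0.79 (0.75 to 0.84) that was not called and moved to 0.01 under the keratin scaling. Arnt, which encodes the DNA-binding partner of these factors and of Sim2, was at 0.05 (-0.05 to 0.14) from 1785 reads in the label-retaining library and 1893 reads in the non-retaining library. Scaled on Krt8 and Krt18, Arnt moved to -0.73 and the list median to -0.73. The counts of calls were then 0 and 5, beside 903 higher and 7128 lower of all measured genes. Sim1, the closest relative of Sim2, had 11 reads in the label-retaining library and 3 reads in the non-retaining library, below the minimum for a measured gene.

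Other acid phosphatase genes had no lower call under the deposited scaling. Among 6 measured, 2 were higher and 0 were lower, beside 14.5% and 19.4% of all measured genes, and the median was 0.25. Under the keratin scaling the counts were 0 and 1, beside 903 higher and 7128 lower of all measured genes, and the median -0.53. The higher ones were Pxylp1, a xylose phosphatase gene of proteoglycan synthesis, at 1.35 (1.23 to 1.48), and Acp2, a lysosomal phosphatase gene, at 1.06 (0.93 to 1.20), neither of them called under the keratin scaling. Acp5, the tartrate-resistant phosphatase gene, stood at 28.9 TPM in the label-retaining library and 24.3 TPM in the non-retaining library. By level per length, Acpp was the lowest of 5 acid phosphatase genes in the label-retaining library, at 2.11 TPM. In the non-retaining library it was the highest, at 44.4 TPM, and this change of rank partly follows from how Acpp was chosen.

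Genes of the vitamin D system other than Vdr went both ways. Among 12 other measured genes, 4 were higher and 2 were lower, beside 14.5% and 19.4% of all measured genes, and the median was 0.22. Of the RXR partners, Rxra was at -1.83 (-1.93 to -1.72), from 9.83 TPM in the label-retaining library and 36.1 TPM in the non-retaining library. Rxrb was at 0.31 (0.22 to 0.41), at 28.5 TPM in the label-retaining library and 23.7 TPM in the non-retaining library. Cyp24a1, the vitamin D-degrading enzyme gene that the receptor is known to induce, had 45 reads in the label-retaining library and 4 reads in the non-retaining library. It was called higher, at 3.46 (2.17 to 5.56), and remained so under the keratin scaling at 2.72. The calcium pump gene Atp2b1, which had the highest TPM of the list averaged over the libraries, was lower at -1.12 (-1.16 to -1.07). Keratin scaling left 2 genes of the list higher and 3 lower, beside 903 and 7128 of all measured genes, with a median of -0.56.

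**Figure D3:**
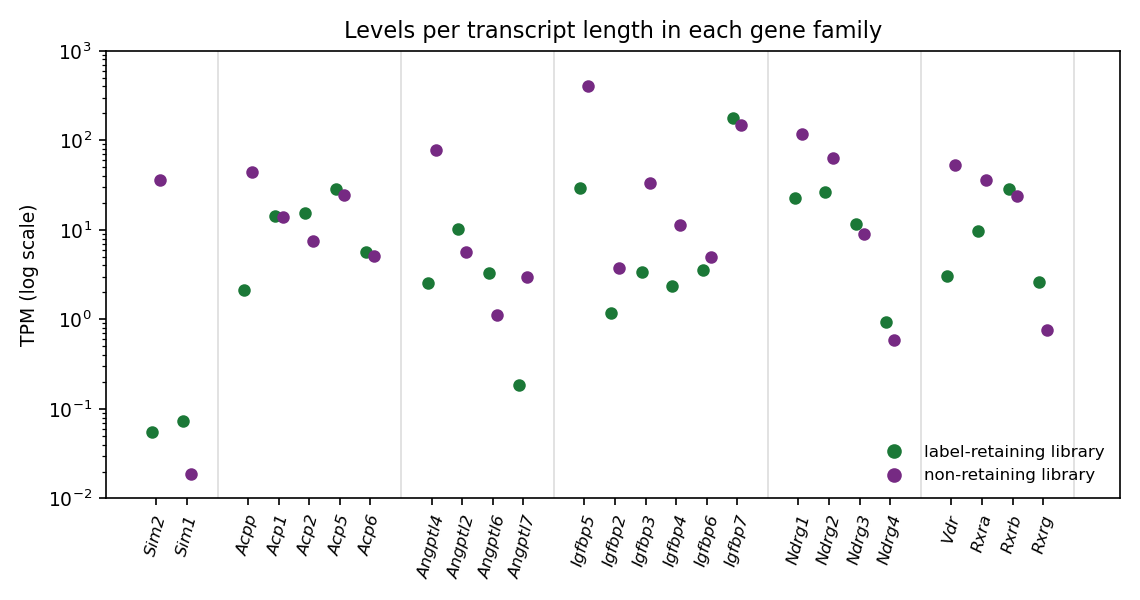
TPM (log scale) of each of the 6 genes and its family members or partners, with label-retaining values in green left of non-retaining values in purple, 1 library each and no error bars. Each of the 6 genes is the highest of its family in the non-retaining library and ranks second or lower in the label-retaining library. The 6 genes were chosen for this contrast and their relatives were not, so these ranks partly follow from the choice. Sim1 was below the minimum for a measured gene.

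Genes around Angptl4 split. Among 7 measured angiopoietin-like and lipoprotein lipase genes, 3 were higher and 3 were lower, beside 14.5% and 19.4% of all measured genes. The list median was 0.88. Lpl, the lipase that Angptl4 inhibits, was higher at 2.05 (1.85 to 2.26), with 963 reads in the label-retaining library and 255 reads in the non-retaining library. Of the relatives of Angptl4, Angptl7 was lower at -3.84 (-5.28 to -2.84) from 7 reads in the label-retaining library and 117 reads in the non-retaining library. The endothelial lipase gene Lipg was lower at -2.87 (-3.16 to -2.60). Angptl2 was at 0.88 (0.74 to 1.03), not called, and at 10.2 TPM in the label-retaining library it stood above Angptl4 (2.56 TPM), whereas in the non-retaining library it stood below, at 5.72 TPM against 78.3 TPM. The keratin scaling left 1 gene of the list higher and 3 lower, beside 903 and 7128 of all measured genes.

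PPAR receptors and their targets, of which Angptl4 is one, had 1 higher and 5 lower genes of 15 measured, with a median of -0.71. Of all measured genes, 14.5% were higher and 19.4% lower. Pdk4, a kinase gene that restrains glucose oxidation, was lower at -3.72 (-3.83 to -3.61), with 696 reads in the label-retaining library and 10059 reads in the non-retaining library. The keratin scaling gave 0 higher and 11 lower genes of this list, beside 903 higher and 7128 lower of all measured genes.

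Genes of the insulin-like growth factor axis were lower more often than higher, as were all measured genes (19.4% lower and 14.5% higher). Among 18 measured, 2 were higher and 9 were lower, and the median was -1.01. Keratin scaling gave 1 and 11, beside 903 higher and 7128 lower of all measured genes. The binding protein gene Igfbp3 was at -3.25 (-3.48 to -3.03), with 184 reads in the label-retaining library and 1921 reads in the non-retaining library. Igfals, whose product carries binding protein complexes in blood, was at -4.35 (-5.78 to -3.37), with 7 reads in the label-retaining library and 167 reads in the non-retaining library. Igfbp7, which binds these factors weakly, was at 0.32 (0.25 to 0.39), and at -0.47 under the keratin scaling. In the label-retaining library Igfbp7 was the most abundant binding protein gene, at 177 TPM against 29.7 TPM of Igfbp5. In the non-retaining library the order was the other way round, at 147 TPM of Igfbp7 against 409 TPM of Igfbp5.

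Ndrg1 was the most depleted of its family, which partly follows from how it was chosen. Ndrg2, a relative known from differentiated tissues, was lower at -1.22 (-1.31 to -1.14), with 1561 reads in the label-retaining library and 3992 reads in the non-retaining library. Ndrg3 was at 0.45 and Ndrg4 at 0.72, neither called, and both were below 0 under the keratin scaling, which gave the family median as -0.33. Ndrg1 stood at 22.9 TPM and Ndrg2 at 26.5 TPM in the label-retaining library, against 119 TPM and 63.9 TPM in the non-retaining library.

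Hypoxia-responsive genes, a group to which Ndrg1 and Angptl4 belong, had 2 higher and 6 lower genes of 24 measured, and 16 were not called. These counts stand near the 14.5% higher and 19.4% lower of all measured genes. The median was -0.18. Egln3, an oxygen-sensing prolyl hydroxylase gene, was at -6.05 (-6.56 to -5.62), with 40 reads in the label-retaining library and 2947 reads in the non-retaining library. Adm, which encodes the vessel-dilating peptide adrenomedullin, was at -2.95 (-3.06 to -2.84), with 732 reads in the label-retaining library and 6203 reads in the non-retaining library. The glycolytic gene Aldoa, the most abundant of the list, was at 0.17 (0.14 to 0.20), and at -0.61 under the keratin scaling. That scaling gave 0 higher and 12 lower genes, beside 903 and 7128 of all measured genes, and a median of -0.96. Ndrg1 and Angptl4, both chosen by their ratios, thus lay below the median of the list, as did Egln3 and Adm. Under the deposited scaling, most of the list was within 2-fold.

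**Figure D4:**
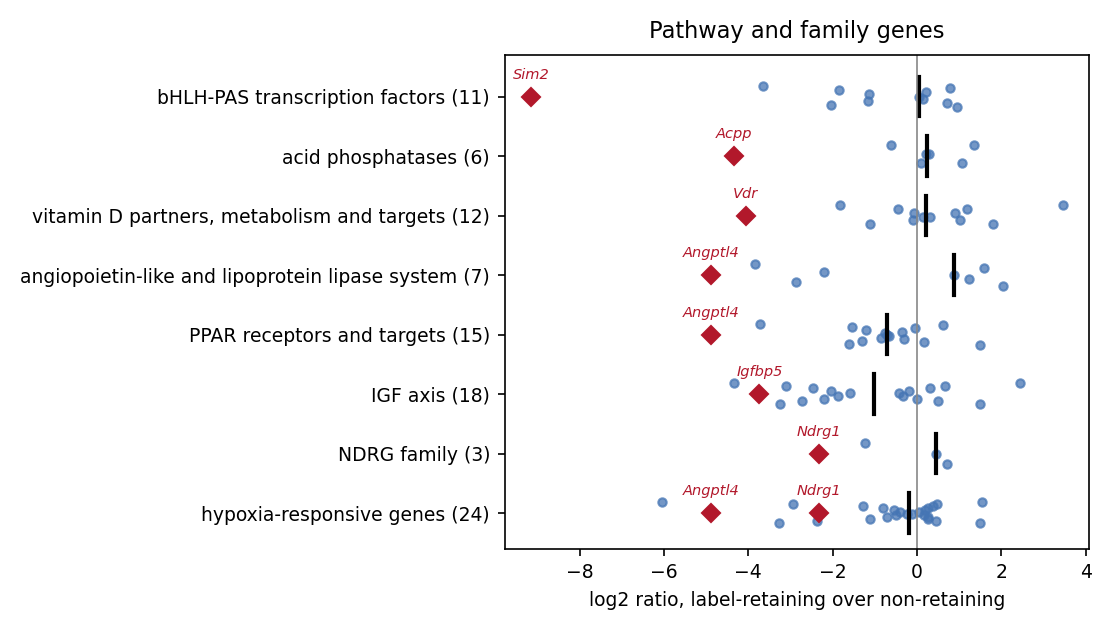
Log2 ratio (label-retaining over non-retaining) of each measured gene (blue) of 8 pathway and family lists, number of genes in brackets, with the list median as a black bar and the related genes among the 6 as red diamonds. Sim2, Acpp, Vdr and Ndrg1 in its own family lie below every other measured gene of their lists. The 6 genes were chosen by this ratio, so their low places partly follow from the choice. Igfals lies below Igfbp5, and Egln3 below Angptl4.

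Cell type markers placed the same ratios beside those of other cells in the sorts. The counts below stand beside 14.5% higher and 19.4% lower of all measured genes. Those under the keratin scaling stand beside 903 higher and 7128 lower of all measured genes. All 11 measured basal epithelial markers were lower (median -4.36, from -4.78 to -1.88), with a summed normalised count of 39744 in the label-retaining library and 395749 in the non-retaining library. All 10 T and NK cell markers were lower (median -5.60), with sums of 117 in the label-retaining library and 9702 in the non-retaining library, and Gzma at 0 in the label-retaining library. All 10 smooth muscle markers were lower (median -3.27), with sums of 3269 in the label-retaining library and 42502 in the non-retaining library. Of 6 pericyte markers 5 were lower (median -3.95), and the sums were 2071 in the label-retaining library and 12271 in the non-retaining library. All 4 measured red cell genes were lower (median -4.11), with sums of 438 in the label-retaining library and 9364 in the non-retaining library. No other marker of these 5 lists was at 0 in either library. These counts did not change under the keratin scaling or the scaling to total reads.

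Fibroblast markers split, with 3 higher and 4 lower of 10 (median 0.37) and sums of 18698 in the label-retaining library and 92518 in the non-retaining library. The lower ones included Dcn, which encodes decorin, at -4.09 (-4.13 to -4.05), and Pdgfra, a growth factor receptor gene, at -4.68 (-5.07 to -4.34); the keratin scaling left 0 higher. Endothelial markers had 0 higher and 6 lower of 10 (median -1.24), with sums of 805 in the label-retaining library and 1876 in the non-retaining library. Macrophage markers had 3 higher and 0 lower of 8 (median 0.10), turned to 0 and 4 by the keratin scaling, and sums of 1651 in the label-retaining library and 1475 in the non-retaining library. Of 8 adipocyte markers, for a source from which Angptl4 is known, 2 were measured, Fabp4 at -1.79 and Lipe at 0.30, and the other 6, among them Adipoq and Plin1, were not analysed here. Luminal markers had 4 higher and 0 lower of 12 (median 0.84), and 4 and 3 under the keratin scaling. Prostate secretory and androgen-regulated genes, the group to which Acpp would be assigned from human prostate, had 5 higher and 0 lower of 10 (median 1.20), and 3 and 1 under the keratin scaling. Acpp, itself chosen by its ratio, lay at -4.34, below every measured gene of these last 2 lists. Glial and neural markers, for sources from which Ndrg1 and Acpp are known, had 4 higher and 1 lower of 6 (median 2.23), with the same counts under the keratin scaling. The remaining lists were at medians of 6.80 for seminal vesicle genes (6 higher of 6), 1.96 for urothelial genes (4 higher of 5) and 0.61 for neuroendocrine genes (1 higher and 1 lower of 3). Proximal luminal genes were at -0.08 (2 higher and 4 lower of 10), B cell genes at -1.07 (2 lower of 4) and skeletal muscle genes at -1.72 (2 lower of 3). Under the keratin scaling the neuroendocrine median turned to -0.17 and 0 of its genes were higher.

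The ratios of Acpp, Vdr and Igfbp5 lay within the range of the basal list, as did that of Ndrg1. Of the 11 basal markers, 6 were below Acpp, 7 below Vdr, 7 below Igfbp5, 9 below Ndrg1, and 0 below Angptl4 or Sim2. Of the 10 T and NK cell markers, 1 was below Sim2 and 7 were below Angptl4. A further comparison put 9 of them below each of Acpp, Vdr and Igfbp5, and 10 below Ndrg1. The ratios of all 6 genes but Ndrg1 thus also lay within the range of that list, from -12.0 (Gzma, set by the pseudocount) to -3.21. Of the 10 smooth muscle markers, 1 was below Acpp, 1 below Vdr, 2 below Igfbp5 and 6 below Ndrg1. Of the 6 pericyte markers, 1 was below Acpp, 3 below Vdr, 4 below Igfbp5 and 4 below Ndrg1. The same counts held for the 10 fibroblast markers. Of the 4 red cell genes, 1 was below Angptl4, 2 below each of Acpp, Vdr and Igfbp5, and 3 below Ndrg1. The part that basal cells, lymphocytes, muscle, pericytes, fibroblasts or red cells in the sorts have in these ratios was not tested.

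**Figure D5:**
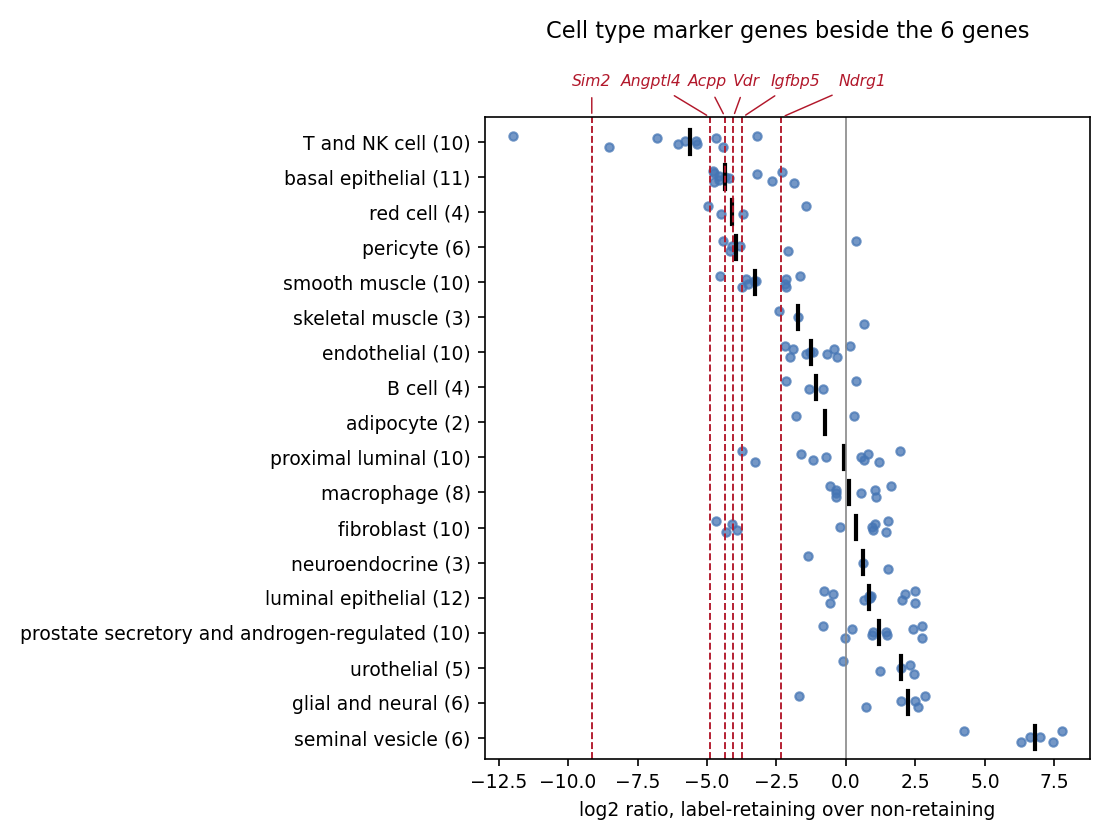
Log2 ratio (label-retaining over non-retaining) of each measured marker (blue) of 18 cell type lists, number of markers in brackets and list medians as black bars, with dashed lines at the 6 genes. The T and NK cell list has a median of -5.60 and the basal list -4.36; Sim2 at -9.15 lies below every marker but Gzma, whose value is set by the pseudocount.

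The genes nearest to each of the 6 were found by distance in log2 ratio and log2 mean normalised count over the 2 libraries, where a distance of 1 is a 2-fold difference in either. Nearest to Sim2 were the granzyme gene Gzmb at 0.96, Tcrg-C2 at 2.35 and the scavenger receptor gene Cd163l1 at 2.49, so that no gene lay close. Gzmb had 11 reads in the label-retaining library and 4705 reads in the non-retaining library. Nearest to Angptl4 were the receptor gene P2ry10 at 0.049, Prdm1, which encodes the repressor BLIMP1, at 0.072, and the lymphoid phosphatase gene Ptpn22 at 0.11. Near to Acpp were the pseudokinase gene Ptk7 at 0.17 and the metalloreductase gene Steap4 at 0.21. Vdr was nearest to the calcium channel subunit gene Cacna2d1 at 0.10, the transcription factor gene Maf at 0.18 and Steap4 at 0.25. Igfbp5 was nearest to the transglutaminase gene Tgm2 at 0.14, the syndecan gene Sdc1 at 0.21 and the ephrin receptor gene Epha2 at 0.47. Ndrg1 was nearest to the integrin gene Itgb4 at 0.14, the tensin gene Tns1 at 0.16 and the chemokine gene Cxcl1 at 0.18. With 2 libraries many genes share such values, and the distances are a description of these libraries.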

How the data were processed

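The authors deposited 1 table of normalised signal, that is, gene read counts divided by 1 size factor per library; the submitters' processing notes name, without roles, the mm10 build and DESeq 1.16.0, HTSeq 0.6.0, Bowtie2 2.1.0, TopHat2 2.0.10 and CASAVA 1.8.2. All values (100%) were whole multiples of 1 step per column (tolerance 1e-06), which gave the reads and size factors of 1.00 (label-retaining) and 1.10 (non-retaining). Symbols, positions and merged exon lengths came from GENCODE M21 (GRCm38), which named 18634 identifiers. TPM was computed over the genes of the table. Ratios used the deposited scaling and a pseudocount of 0.5, intervals were exact, and 1541 genes with a mean under 10 were left out. With 1 library per group no test was run. Alternatives were 4 other scalings (TMM from edgeR 4.0.16), a pseudocount of 5, minimum means of 50 and none, and a 4-fold rule. The 6 genes and the 26 lists were chosen with earlier results of these data known. Genes were named by a rule: from each list the 2 called genes whose interval lay farthest from equality and the most abundant, the 3 nearest genes and the chromosomal neighbours; Ahr, Arnt, Lpl, Rxrb, Sim1 and family members were added after their values were seen, as were the GC box, TATA box and CCAAT box motifs. Calls were run on counts simulated with counting error only, which cannot show how they fare with variation between libraries. Values of some of these genes are not reported here.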

Additional observations from a re-analysis of the deposited data

How the results depend on the processing

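All 6 genes stayed lower under each of the 4 other scalings and with a pseudocount of 5. Scaling to total reads gave log2 ratios of -4.55 for Acpp, -4.26 for Vdr, -3.94 for Igfbp5 and -2.53 for Ndrg1. Scaling on Krt8 and Krt18 gave -5.13 for Acpp, -4.84 for Vdr, -5.67 for Angptl4, -4.52 for Igfbp5 and -3.11 for Ndrg1. It gave 903 genes higher and 7128 lower, and a 4-fold rule gave 742 higher and 1656 lower. These shifts follow from the scaling, which moves all well-counted genes alike, and from the stricter rule. Median-of-ratios and TMM factors, the minimum means and a pseudocount of 5 kept both counts within 1.5 times. Of the 26 list medians, 9 left their interval under the keratin scaling and 0 under a minimum mean of 50, which left no measured gene in 1 list. The label-retaining depth limits Sim2 most, with 4 reads. No paired analysis was possible because each group had 1 library, and for the same reason no library could be left out.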
